A study of Mus musculus with 16 samples.

Results

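Interferon-induced genes were followed in naive CD4+ T cells that had been activated with or without costimulation and with or without the transcription factor Dec1. The members were 40 named genes, each measured by the probe that the array's annotation gives to that symbol alone, or by the brightest such probe. Of these, 32 had such a probe and 31 of them passed the filter on dim probes, out of 16427 genes tested. Ifi205 was too dim. Ifi204, Ifi47, Isg15, Gbp2, Igtp and Irgm2 lay only on probes shared with another symbol, and Ifi44 and Ly6a had no probe in the annotation table, so these 8 were not analysed here.

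The cells were sorted as CD4+CD62LhiCD25- from spleen and lymph nodes of B6 mice, either wild type (WT) or DEC1 knock-out (KO). Dec1, the product of Bhlhe40, is a repressor of the basic helix-loop-helix class. Latex beads then stimulated the cells for 24 h. They carried anti-CD3, which triggers the T cell receptor, or anti-CD3 together with anti-CD28, which adds costimulation. The 4 groups, WT_CD3, WT_CD3CD28, KO_CD3 and KO_CD3CD28, had 4 arrays each. All 4 groups were stimulated, so no level of resting cells enters the comparisons. No label says that replicates 1 to 4 came from separate animals, so the p-values cover only the spread between these samples, some of it perhaps technical. The labels do not say which part of Bhlhe40 was deleted or in which cells.

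Interferons act through surface receptors and Janus kinases. Type I interferons activate a complex that contains STAT2 and IRF9 and binds interferon-stimulated response elements, and interferon gamma is made by T cells themselves. The induced genes encode nucleic acid sensors, proteins that block viral RNA or its translation, and GTPases that attack the vacuoles of intracellular microbes; the STAT and IRF factors are themselves among them. Dec1 can bind DNA at E-boxes with the letters CACGTG.

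RefSeq promoter sequences, 250 bases before to 50 after a gene's start in GRCm38.p6, were held for 31 of the 40 listed genes (39 promoters, since some genes have several starts). The letters GAAANNGAA, the core of the interferon-stimulated response element, were searched on both strands and were found in 53.8% of these promoters, against 8.56% of 32851 promoters of all genes. TTCNNNGAA, the gamma-activated site of genes that respond to interferon gamma, was found in 20.5% against 8.30%. The E-box CACGTG was found in 2.56%, the promoter of Trim25, against 7.15%. The first of these motifs can share its bases GAA with the second, as in Bst2. Matches describe the letters only. The sequences below were chosen because the results turn on these genes: the PYHIN genes Ifi214 and Ifi203 and the factor Stat2, which fell with anti-CD28, Bst2, which rose, Ifit1 and Ifit3, whose difference changed sign between replicates, the GTPases Irgm1 and Gbp7, and Trim25 for its E-box. Capitals mark every match of the motif named, which for the response element may lie on the other strand and then start with TTC and end with TTTC.
Ifi214, response element core, chr1:173536002-173536061, minus strand: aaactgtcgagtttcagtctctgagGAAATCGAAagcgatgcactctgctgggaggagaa
Ifi203, response element core, chr1:173942493-173942552, minus strand: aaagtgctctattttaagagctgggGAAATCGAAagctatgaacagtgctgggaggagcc
Stat2, response element core, chr10:128270252-128270311, plus strand: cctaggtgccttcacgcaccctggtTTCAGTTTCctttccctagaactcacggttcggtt
Ifit1, response element core, chr19:34640755-34640814, plus strand: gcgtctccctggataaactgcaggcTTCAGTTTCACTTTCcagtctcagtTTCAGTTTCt
Ifit3, response element core, chr19:34583383-34583442, plus strand: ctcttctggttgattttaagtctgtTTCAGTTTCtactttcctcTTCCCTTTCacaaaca
Irgm1, response element core, chr11:48871421-48871480, minus strand: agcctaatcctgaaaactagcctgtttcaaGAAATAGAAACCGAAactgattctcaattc
Bst2, response element core, chr8:71537568-71537627, minus strand: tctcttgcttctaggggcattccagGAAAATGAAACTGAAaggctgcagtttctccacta
Gbp7, gamma-activated site, chr3:142530224-142530283, plus strand: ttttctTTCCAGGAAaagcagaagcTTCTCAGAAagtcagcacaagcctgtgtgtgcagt
Trim25, E-box, chr11:88999328-88999387, plus strand: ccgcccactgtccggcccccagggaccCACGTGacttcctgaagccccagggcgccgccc

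The matches of the PYHIN pair carry the same 9 letters, GAAATCGAA, at -79 relative to the start of Ifi214 and at -35 in Ifi203. In Ifit1, Irgm1 and Bst2 neighbouring matches overlapped in 1 run. The response element core was found in 42.9% of 14 promoters of tested members that were lower with anti-CD28 in a genotype, in 66.7% of 3 promoters of those that were higher, and in 46.7% of 15 promoters of those called in neither direction. The 9 listed genes with no entry in the promoter table, among them Ifi27l2a, Iigp1, Zbp1 and Usp18, have no sequence here.

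Bhlhe40 was measured first, as a check of the labels. In log2 units, WT_CD3 was at 7.56 ± 0.42 (SD, n = 4) and KO_CD3 at 5.53 ± 0.32, and with anti-CD28 the wild type was at 9.51 ± 0.71 and the knockout at 5.88 ± 0.14. No knockout array reached a wild-type array. A probe is called near background in a group where it ranked on average under the 40th percentile of all probes of its arrays, and Bhlhe40 did so in both knockout groups. T cell markers were well measured: 8 of 10 listed had a probe, none was near background, and their mean level was 10.94 to 11.83 on single arrays. Of 11 myeloid and dendritic markers, 8 or 9 were near background in each group and the list mean was 5.95 to 6.52. The list mean of 7 B cell markers was 6.00 to 6.68 and that of 7 NK cell markers 5.60 to 6.61. Other T cell lists were brighter, with means of 7.70 to 8.75 for 2 CD8 markers and 8.75 to 10.19 for 4 regulatory T cell markers. No marker on these 2 lists was near background in any group. The mean of 4 memory T cell markers was 7.42 to 8.88.

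Of the tested members, 29 were above background in every group. Rsad2, which encodes the antiviral enzyme viperin, was near background in all 4 groups, at 5.20 to 5.88 over the 16 arrays, so no fold is given for it. Dhx58, a helper of RNA sensing, was near background in KO_CD3 alone. The arrays show relative probe brightness, so levels are compared within a gene and not between genes.

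**Figure D1:**
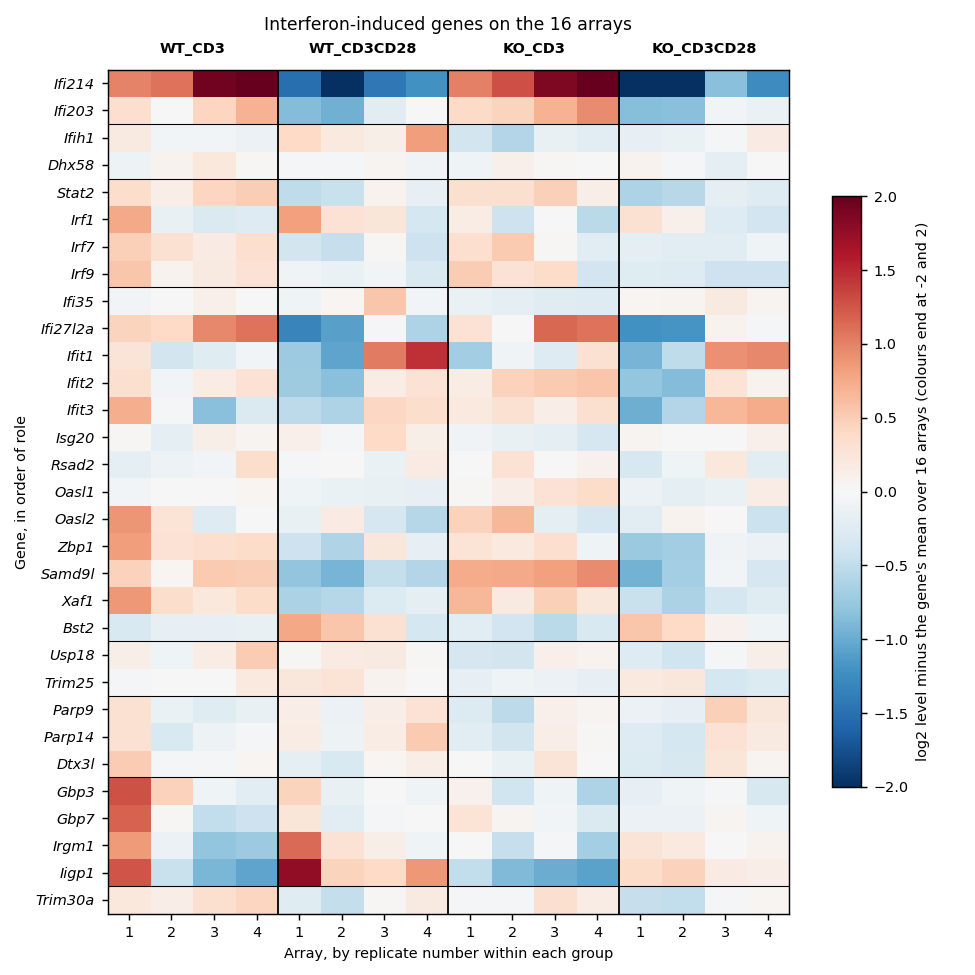
Log2 level of each of the 31 tested members (rows, in order of role) on each of the 16 arrays (columns, replicates 1 to 4 in each group), shown as the difference from the gene's mean over all arrays; colours end at -2 and 2. Ifi214 is red in both anti-CD3 groups and blue in both groups with anti-CD28, while Ifit1 and Ifit3 part replicates 1 and 2 from 3 and 4 within the groups with anti-CD28.

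The first comparison took wild-type cells and asked what costimulation through CD28 changes. More members fell than rose: 9 of 31 were lower, led by the nucleic-acid-binding PYHIN proteins, antiviral effectors and the factors Stat2 and Irf7, and 3 were higher, the RNA sensor Ifih1, the GTPase Iigp1 and the virus tether Bst2. In limma, with p-values adjusted by the Benjamini-Hochberg method over all 16427 genes and a threshold of 0.05, 13% of all genes were lower and 16% higher, 29.0% in either direction. Members were called lower in 29.0% of cases and higher in 9.68%, together 12 of 31 or 38.7%. The median log2 difference was -0.07 over the members and -0.03 over all genes. These are descriptions of a list chosen with earlier results of these data known.

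Among the PYHIN genes, whose products bind nucleic acids, Ifi214 moved furthest of the 31 members in either genotype. In wild-type cells its log2 level was 9.61, 9.70, 10.55 and 10.63 under anti-CD3 and 7.11, 6.63, 7.19 and 7.40 with anti-CD28 added. In knockout cells it was 9.62, 9.91, 10.49 and 11.02 against 6.39, 6.46, 7.78 and 7.36. Every array with anti-CD28 lay below every array without it, in both genotypes. The log2 difference was -3.04 in wild type (8.24-fold, SE 0.34, 95% interval -3.76 to -2.33, limma adjusted p = 3.73e-06) and -3.26 in knockout (9.59-fold, SE 0.34, -3.98 to -2.55, adjusted p = 9.27e-07).

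Ifi203, a paralogue of Ifi214, fell less. Its levels in wild type were 10.99, 10.65, 11.08 and 11.36 under anti-CD3 and 9.79, 9.69, 10.45 and 10.66 with anti-CD28. In knockout they were 11.04, 11.11, 11.36 and 11.60 against 9.80, 9.82, 10.60 and 10.53. The wild-type groups touched, since replicate 4 with anti-CD28 was at the level of replicate 2 without it, and the knockout groups stayed apart. The log2 difference was -0.87 in wild type (SE 0.23, adjusted p = 0.00823) and -1.09 in knockout (SE 0.23, adjusted p = 0.00125). The PYHIN genes are close copies of each other, and cross-hybridisation between their probes was not tested.

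Among the antiviral effectors, Samd9l, Xaf1, Ifi27l2a and Zbp1 fell in both genotypes. Samd9l, a SAMD9-like restraint on viral replication and cell growth, was at 8.86, 8.43, 8.92 and 8.88 in WT_CD3 and at 7.60, 7.47, 7.92 and 7.81 in WT_CD3CD28. The knockout levels were 9.13, 9.15, 9.22 and 9.33 against 7.45, 7.72, 8.33 and 8.06. Groups did not overlap in either genotype, and the differences were -1.07 (SE 0.16, adjusted p = 7.29e-05) and -1.32 (SE 0.16, adjusted p = 5.25e-06).

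Xaf1, a pro-apoptotic protein that antagonises the inhibitor XIAP, was at 8.31, 7.78, 7.65 and 7.81 in WT_CD3 and at 6.80, 6.86, 7.16 and 7.24 in WT_CD3CD28. In knockout the values were 8.10, 7.62, 7.92 and 7.66 against 6.99, 6.81, 7.08 and 7.19. Again the arrays with anti-CD28 were all below the others, by -0.87 in wild type (SE 0.15, adjusted p = 0.000243) and -0.80 in knockout (SE 0.15, adjusted p = 0.000358). Ifi27l2a, which encodes a small membrane protein, fell from 10.13 ± 0.35 to 8.64 ± 0.56 in wild type (log2 -1.49, SE 0.34, adjusted p = 0.00279) and from 10.03 ± 0.58 to 8.82 ± 0.70 in knockout (-1.22, adjusted p = 0.0089). Its wild-type groups did not overlap, and in knockout replicate 3 with anti-CD28, at 9.47, exceeded replicate 2 without it, at 9.39. Zbp1, a sensor of Z-form nucleic acid that triggers cell death, fell by 0.69 in wild type (SE 0.19, adjusted p = 0.00925) and by 0.59 in knockout (SE 0.19, adjusted p = 0.0194).

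Of 13 effectors tested, 1 rose and 4 fell in wild type, and 2 rose and 6 fell in knockout. Among all genes, 29.0% were called in either direction in wild type and 38.0% in knockout. Ifit2 and Oasl1 were called in knockout alone. Ifit2, of the family that binds viral RNA, fell there by 0.75 (SE 0.26, adjusted p = 0.0309), against a difference of -0.45 in wild type (adjusted p = 0.226). Oasl1, a relative of the oligoadenylate synthetases, fell by 0.27 (SE 0.09, adjusted p = 0.0192) against -0.13 (adjusted p = 0.307). The interaction, which tests whether the CD28 effect differs between genotypes, had adjusted p-values of 0.93 and 0.907 for this pair.

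Bst2, which tethers budding virus to the cell surface, was higher with anti-CD28. In wild type it was at 8.0, 8.14, 8.13 and 8.15 under anti-CD3 and at 9.07, 8.85, 8.60 and 7.94 with anti-CD28; in knockout it was at 8.07, 7.92, 7.76 and 7.99 against 8.85, 8.70, 8.38 and 8.21. The wild-type groups overlapped through replicate 4, which was lower with anti-CD28 than without. It rose by 0.51 in wild type (SE 0.18, adjusted p = 0.0459) and by 0.60 in knockout (SE 0.18, adjusted p = 0.016), where the groups stayed apart. With replicates 3 and 4 alone the differences were 0.13 (adjusted p = 0.774) and 0.42 (adjusted p = 0.18). Bst2 also stands on the list of plasmacytoid dendritic cell markers used here, of which the mean of 5 lay at 6.96 to 7.25 on all arrays. Siglech, from the same list, moved the other way, by -0.25 in wild type (adjusted p = 0.0296).

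Among the transcription factors, Stat2, which pairs with IRF9 in the factor that binds response elements, fell in both genotypes. Its wild-type levels were 8.41, 8.19, 8.48 and 8.55 under anti-CD3 and 7.55, 7.61, 8.13 and 7.89 with anti-CD28, and its knockout levels 8.38, 8.37, 8.53 and 8.18 against 7.44, 7.49, 7.85 and 7.79. Neither pair of groups overlapped. The differences were -0.61 (SE 0.13, adjusted p = 0.00181) and -0.72 (SE 0.13, adjusted p = 0.000328).

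Irf7, the amplifier of type I interferon production, fell by 0.61 in wild type (SE 0.14, adjusted p = 0.00241), from 7.28 ± 0.13 to 6.67 ± 0.22. In knockout it was at 7.14 ± 0.32 and 6.79 ± 0.07 (-0.34, adjusted p = 0.0578). Irf9, the DNA-binding partner of STAT2, showed the reverse order of calls, with -0.41 in wild type (adjusted p = 0.0547) and a fall of 0.53 in knockout (SE 0.15, adjusted p = 0.0112). The interaction gave adjusted p-values of 0.907 and 0.956 for Irf7 and Irf9, so no difference between genotypes was detected in either. Irf1, which activates genes downstream of interferon gamma, was at 9.50 ± 0.50 and 9.74 ± 0.48 in wild type (0.24, adjusted p = 0.545) and was not called in knockout either (0.14, adjusted p = 0.691).

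The GTPases attack vacuoles that hold microbes. Iigp1 was the member with the largest rise in both genotypes. It was at 9.04, 7.33, 6.87 and 6.73 in WT_CD3 and at 9.55, 8.23, 8.18 and 8.65 in WT_CD3CD28, and at 7.28, 6.90, 6.78 and 6.71 in KO_CD3 against 8.14, 8.24, 7.94 and 7.91 in KO_CD3CD28. Replicate 1 of WT_CD3 stood above most arrays with anti-CD28 and made the wild-type groups overlap, and the knockout groups stayed apart. The rise was 1.16 in wild type (2.23-fold, SE 0.38, adjusted p = 0.03) and 1.14 in knockout (2.2-fold, SE 0.38, adjusted p = 0.0262). Each of the 4 same-numbered pairs was higher with anti-CD28 in both genotypes.

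The other 3 GTPases tested were not called. Irgm1, which regulates its relatives and autophagy, showed 0.56 in wild type (adjusted p = 0.189) and 0.42 in knockout (adjusted p = 0.292). Gbp3 showed -0.30 and 0.11, and Gbp7 -0.07 and -0.06, which turned to 0.02 and 0.08 after each array was centred on its median. The wild-type spread was wide in WT_CD3, with SDs of 0.68 to 1.06 over the 4 genes, against 0.24 to 0.33 in KO_CD3.

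Ifih1, the sensor of long double-stranded RNA also called MDA5, rose by 0.40 in wild type (SE 0.14, adjusted p = 0.0394), from 8.56 ± 0.13 to 8.96 ± 0.32, with 0.29 in knockout (adjusted p = 0.107). Trim30a, a ubiquitin ligase family member that damps innate signalling, fell by 0.40 in wild type (SE 0.15, adjusted p = 0.0475), with -0.34 in knockout (adjusted p = 0.078). Ifi35, a partner of the interferon-induced protein Nmi, rose by 0.29 in knockout (SE 0.11, adjusted p = 0.0497), with 0.10 in wild type. The PARP9, PARP14 and DTX3L genes, whose products carry out or steer ADP-ribosylation and ubiquitylation after interferon, and the ISG15 pathway genes Usp18 and Trim25 were called in neither genotype, with differences from -0.20 to 0.27.

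**Figure D2:**
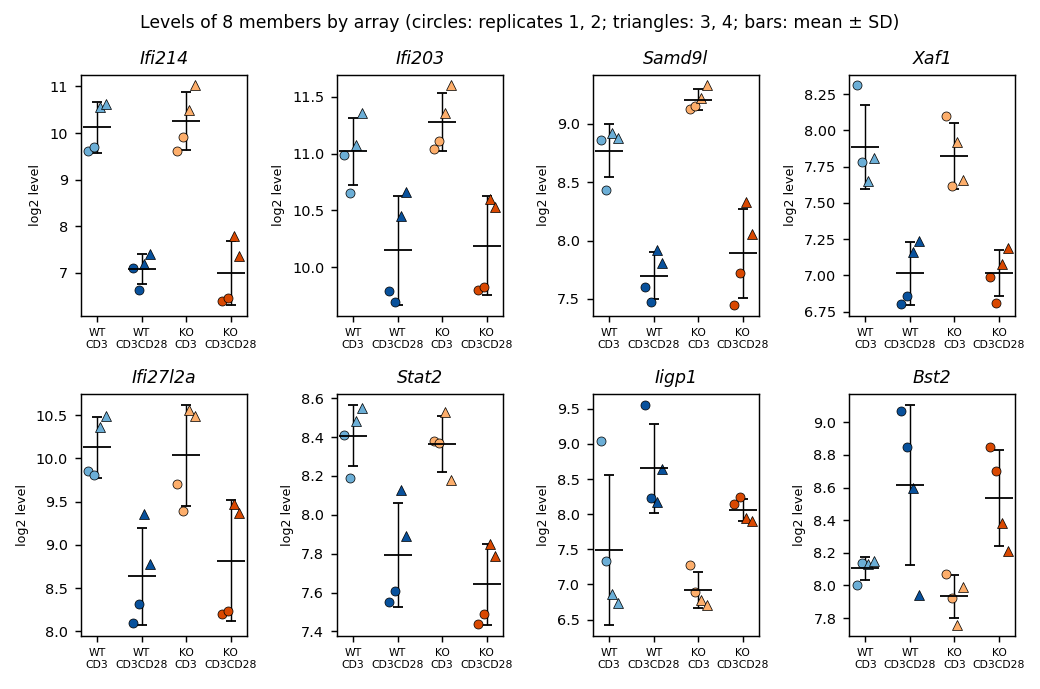
Log2 level on each array (vertical axis) of 8 members whose call was the same in both genotypes, by group (horizontal axis); circles are replicates 1 and 2, triangles 3 and 4, and bars the mean ± SD of 4 arrays. Ifi214, Samd9l, Xaf1 and Stat2 do not overlap between stimuli in either genotype, and replicate 1 of WT_CD3 stands apart for Iigp1 at 9.04.

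In knockout cells 10 of 31 members were lower and 3 higher with anti-CD28, against 17.6% lower, 20.4% higher and 38.0% in either direction among all genes. The members' shares were 32.3%, 9.68% and 41.9%, so the share called in either direction was near that of all genes, and lower calls outnumbered higher ones. The median was -0.11 over the members and -0.06 over all genes. After each array was centred on its own median, the knockout's median over all genes went from -0.063 to 0.071 and the members' split to 5 higher and 6 lower, or 45.5% higher in place of 23.1%, while among all genes called the share that was higher went from 53.8% to 75.0%. In wild type the split was 3 and 8 after centring. Ifit2 (adjusted p = 0.0666), Oasl1 (0.253), Irf9 (0.08) and Zbp1 (0.066) then lost their call in knockout and Trim30a (0.112) in wild type, while Isg20 (0.00926) and Ifih1 (0.0229) gained one in knockout.

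Of the members lower with anti-CD28, 7 were called in both genotypes, 77.8% of the 9 in wild type and 70.0% of the 10 in knockout. They were Ifi214, Ifi203, Ifi27l2a, Stat2, Zbp1, Samd9l and Xaf1. Of those higher, Iigp1 and Bst2 were called in both, 66.7% of the 3 in each. Groups did not overlap for 9 lower and 0 higher members in wild type, against 14.3% and 16.2% of all genes, and for 5 lower and 4 higher members in knockout, against 16.2% and 18.7%.

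The interaction called 0 members and 0 of all genes in limma, 0.0% in either direction, and 0 members reached an unadjusted p under 0.05; 0 were called with a trended prior variance and robust estimation. Member differences of the CD28 effect between genotypes ran from -0.30 for Ifit2 to 0.40 for Gbp3. For Ifi214 the interval of this difference was -1.23 to 0.79, for Samd9l -0.73 to 0.23 and for Ifit1 -1.49 to 1.5.

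**Figure D3:**
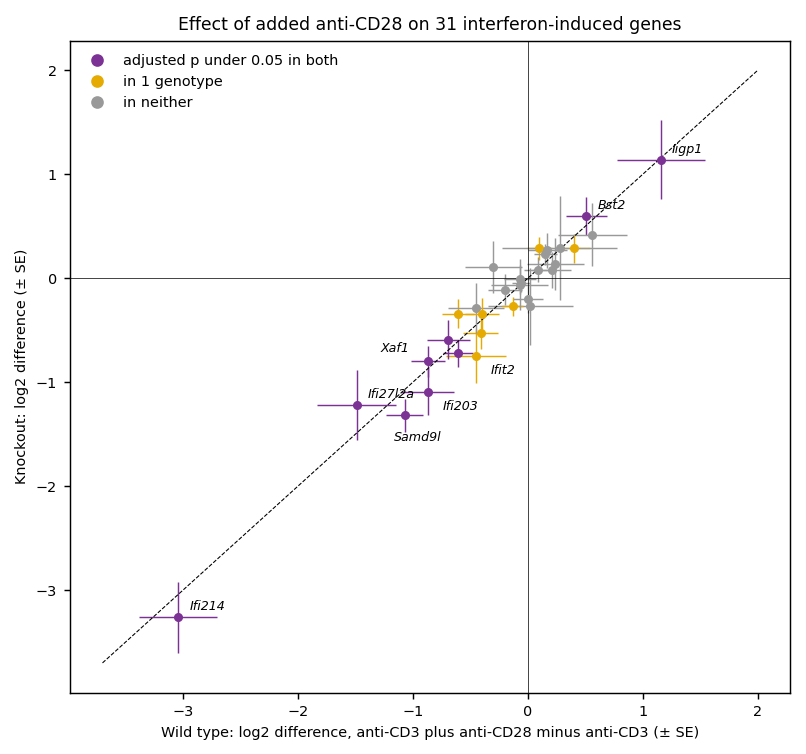
Log2 difference between anti-CD3 plus anti-CD28 and anti-CD3 in wild type (horizontal axis) and in knockout (vertical axis) for the 31 tested members, with ± SE bars; the dashed line marks equal differences and colours the number of genotypes in which the gene was called. Ifi214 lies at -3.04 and -3.26 and Iigp1 at 1.16 and 1.14.

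With the replicate number as a block, 4 members were higher and 11 lower in each genotype. Among all genes this fit called 18.8% higher and 16.5% lower in wild type, 35.3% in either direction, and 23.3% and 22% in knockout, 45.3% in either direction. Oasl2 (adjusted p = 0.0475), Irf9 (0.0179) and Irgm1 (0.0372) were then called as well in wild type, and Isg20 (0.0481) and Trim30a (0.00423) in knockout. Of the wild-type calls, 8 of 12 held whichever of the 16 arrays was left out, and 6 held under every alternative tried: Ifi214, Ifi203, Ifi27l2a, Stat2, Samd9l and Xaf1. In knockout 7 of 13 held without any 1 array, and these 6 genes also held there under every alternative. The calls in wild type that were lost were Ifih1, without replicate 2, 3 or 4 of WT_CD3 or 1 or 4 of WT_CD3CD28 (adjusted p up to 0.127), and Iigp1, without replicate 2, 3 or 4 of WT_CD3 or 1 of WT_CD3CD28 (up to 0.12). Trim30a was lost without any of 9 arrays (up to 0.177) and Bst2 without any of 12 (up to 0.174).

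In knockout, Ifi35 was lost without any of 13 arrays (adjusted p up to 0.112). Ifit2 (up to 0.115) and Iigp1 (up to 0.063) were lost without replicate 2, 3 or 4 of KO_CD3 or 1 or 2 of KO_CD3CD28, and Oasl1 (up to 0.0662) without replicate 3 or 4 of KO_CD3 or 1 or 2 of KO_CD3CD28. Zbp1 (up to 0.0749) was lost without replicate 3 of KO_CD3 or 1 or 2 of KO_CD3CD28, and Bst2 (0.0622) without replicate 1 of KO_CD3CD28. Conversely, some members gained a call. In wild type, Irgm1 was called without replicate 1 of WT_CD3 (adjusted p = 0.0111), and Irf9 without replicate 2 of WT_CD3 or 1 or 4 of KO_CD3 (down to 0.00555). In knockout, Irf7 was called without replicate 3 of WT_CD3CD28 or 3 or 4 of KO_CD3 (down to 0.00822). Isg20 (0.0418) was called there without replicate 3 of WT_CD3CD28, Ifih1 (0.0408) without replicate 4 of WT_CD3CD28 and Trim30a (0.0331) without replicate 4 of KO_CD3CD28.

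The genotype was compared next, under each stimulus. Under anti-CD3 limma called 0 members between genotypes, with 0.28% of all genes higher and 0.749% lower, 1.03% in either direction. At an unadjusted p under 0.05, Oasl1 and Samd9l were higher and Gbp3, Ifih1 and Usp18 lower, 5 of 31 against 24.3% of all genes, and a trended prior variance with robust estimation called 0. The member differences ran from -0.61 to 0.44 with a lowest adjusted p of 0.128. The sign was negative for 24 of 31 members, 77.4%, against 44.6% of all genes, with medians of -0.09 and 0.03. After median centring these shares were 80.6% and 61.0%, and after quantile normalization 67.7% and 49.5%. With replicates 3 and 4 alone they were 51.6% and 42.7%, and with replicates 1 and 2 alone 67.7% and 45.8%.

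Samd9l was at 8.77 ± 0.23 in WT_CD3 and 9.21 ± 0.09 in KO_CD3, a difference of 0.44 (95% interval 0.10 to 0.78, adjusted p = 0.128) with groups that did not overlap. Gbp3 was at 7.94 ± 0.68 and 7.32 ± 0.31 (-0.61, interval -1.13 to -0.09, adjusted p = 0.154). With the replicate number as a block these were the members called, Samd9l higher (adjusted p = 0.0281) and Gbp3 lower (adjusted p = 0.0417), while the share of all genes called rose to 5.34% higher and 6.56% lower, 11.9% in all. Ifih1 was at 8.75, 8.52, 8.51 and 8.46 in WT_CD3 and at 8.21, 7.99, 8.42 and 8.34 in KO_CD3, and the groups did not overlap (-0.32, adjusted p = 0.175). Groups did not overlap for 1 higher member, Samd9l, and 3 lower ones, Ifi35, Ifih1 and Trim25, against 8.06% and 6.63% of all genes. Trim25, whose promoter window holds the E-box, differed by -0.18 (adjusted p = 0.34).

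Among members called for CD28 in both genotypes, the 95% interval of the genotype difference under anti-CD3 was -0.58 to 0.85 for Ifi214, -0.23 to 0.75 for Ifi203, -0.38 to 0.25 for Xaf1 and -0.32 to 0.24 for Stat2. Iigp1 differed by -0.58, with an interval of -1.39 to 0.23.

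Under anti-CD3 plus anti-CD28 limma again called 0 members between genotypes, and 1 gene of all, 0.00609%, was called. At an unadjusted p under 0.05 there was 1 member, Ifih1, lower by 0.42 with an interval of -0.71 to -0.13 and an adjusted p of 0.999, against 3.32% of all genes, and the trended robust fit called 0. Ifih1 was at 8.97, 8.76, 8.69 and 9.40 in WT_CD3CD28 and at 8.4, 8.44, 8.55 and 8.73 in KO_CD3CD28, so the groups overlapped by a little. The sign of the genotype difference was negative for 22 of 31 members, 71.0% against 44.4% of all genes, and for 18 (58.1% against 45.8%) with replicates 3 and 4 alone. Groups overlapped for every member, against 2.11% of all genes apart and higher and 0.645% apart and lower. The genotype comparisons share their arrays with the CD28 comparisons.

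Some members varied together among the 4 arrays of a group, and others in opposite directions. Over the 16 arrays, the median correlation between the deviations of 2 members from their group means was 0.18 over 465 pairs, against 0.01 over pairs of all tested genes. It was 0.90 among Gbp3, Gbp7, Irgm1 and Iigp1, 0.91 among Parp9, Parp14 and Dtx3l and 0.83 among Ifit1, Ifit2 and Ifit3. The WT_CD3 arrays weigh most in the value for the GTPases, with SDs of 0.68 to 1.06. Those SDs were 0.19 to 0.63 in WT_CD3CD28 and 0.08 to 0.33 in the knockout groups. The closest pairs were Ifit1 with Ifit2 at 0.96 and Gbp3 with Gbp7 at 0.94. At the other end, Ifit1 with Bst2 was at -0.85, and Ifit2 and Ifit3 with Trim25 were at -0.82. These points share cells, hybridisation and scaling, and are given as a description.

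The GTPases stood highest above their group means on the arrays of wild-type replicate 1, where their mean deviation was 1.15 in WT_CD3 and 0.58 in WT_CD3CD28. On the remaining arrays it ran from -0.59, on replicate 4 of WT_CD3, to 0.32. Ifng, which encodes interferon gamma, was also highest in its group on these 2 arrays, at 7.28 against 6.62 to 6.86 and at 8.32 against 7.16 to 7.53. So was Irf1, at 10.24 against 9.20 to 9.33 and at 10.30 against 9.13 to 9.78. But Irf1 was highest on replicate 1 of the knockout groups too, at 9.64 against 8.95 to 9.49 in KO_CD3 and 9.79 against 9.10 to 9.59 in KO_CD3CD28. Wild-type replicate 1 carried Xist, the RNA of the inactive X chromosome, at 10.95 and 11.24, while the other wild-type arrays were at 5.09 to 5.8. Knockout replicates 2 and 4 also carried it, and their GTPase deviations were -0.07, -0.31, 0.07 and -0.10. Replicate 1 of KO_CD3, with Xist at 5.34, was the highest of its group for the GTPases, at 0.32, and for Ifng, at 7.04. In KO_CD3CD28 replicate 2 was highest for both, at 0.07 and 7.63. The part of Ifng, of sex or of the sorted cells in this was not tested.

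The Ifit genes parted replicates 1 and 2 from 3 and 4 in the presence of anti-CD28. Ifit3 also parted them without it in wild type, in the opposite direction. Its replicates 1 and 2 of WT_CD3 were at 7.25 and 6.51, and 3 and 4 at 5.69 and 6.24. In WT_CD3CD28 they were at 6.01 and 5.92, and at 6.95 and 6.89. The change of its sign between sets in wild type thus came from the arrays of both stimuli. Ifit1 was at 6.13 and 5.8 in replicates 1 and 2 of WT_CD3CD28 and at 7.89 and 8.31 in 3 and 4, while WT_CD3 lay between 6.49 and 7.11. In KO_CD3CD28 it was at 5.92 and 6.34 against 7.77 and 7.82, with KO_CD3 between 6.16 and 7.16. With anti-CD28, then, replicates 1 and 2 were lower than 3 and 4 in both genotypes, without overlap, and all 4 arrays together gave 0.28 in wild type (SE 0.50, adjusted p = 0.736) and 0.29 in knockout (adjusted p = 0.677). The sets were seen in the arrays' own values, and a split made that way can narrow the spread within each set. The limma p-values from single sets that follow are therefore descriptive and do not test an effect in a set. Taken alone, replicates 1 and 2 gave -0.84 in wild type (adjusted p = 0.0186) and replicates 3 and 4 gave 1.40 (adjusted p = 0.00121). Ifit3 gave -0.91 (adjusted p = 0.00461) and 0.96 (adjusted p = 0.00425), and Ifit2 -0.90 (adjusted p = 0.000499) and 0.00 (adjusted p = 0.996). In knockout the corresponding values were -0.34 (adjusted p = 0.265) and 0.92 (adjusted p = 0.00954) for Ifit1, and -1.02 (adjusted p = 0.0017) and 0.49 (adjusted p = 0.0775) for Ifit3. Ifit2 was below 0 in both sets there, at -1.14 (adjusted p = 6.13e-05) and -0.37 (adjusted p = 0.0737).

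Over all members the CD28 difference was lower in replicates 1 and 2 than in 3 and 4 for 23 of 31 in each genotype, 74.2%, against 48.3% of all genes in wild type and 49.0% in knockout. The sign differed between the sets for 11 members in wild type, 35.5% against 27.1% of all genes, and for 10 in knockout, 32.3% against 20.9%. Replicates 1 and 2 alone gave 2 higher and 15 lower members in wild type, beside 3459 and 2476 of all genes, and 2 and 14 in knockout, beside 4211 and 3471. Replicates 3 and 4 alone gave 5 and 6 in wild type, beside 1454 and 1196 of all genes, and 2 and 6 in knockout, beside 1815 and 1081, so fewer genes were called from that set in general. No label gives a batch for these numbers, the sets were seen in the arrays' own values, and the difference between them is given with no test. Ifi214, Samd9l, Xaf1, Stat2, Ifi27l2a and Ifi203 were lower with anti-CD28 in both sets and both genotypes.

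**Figure D4:**
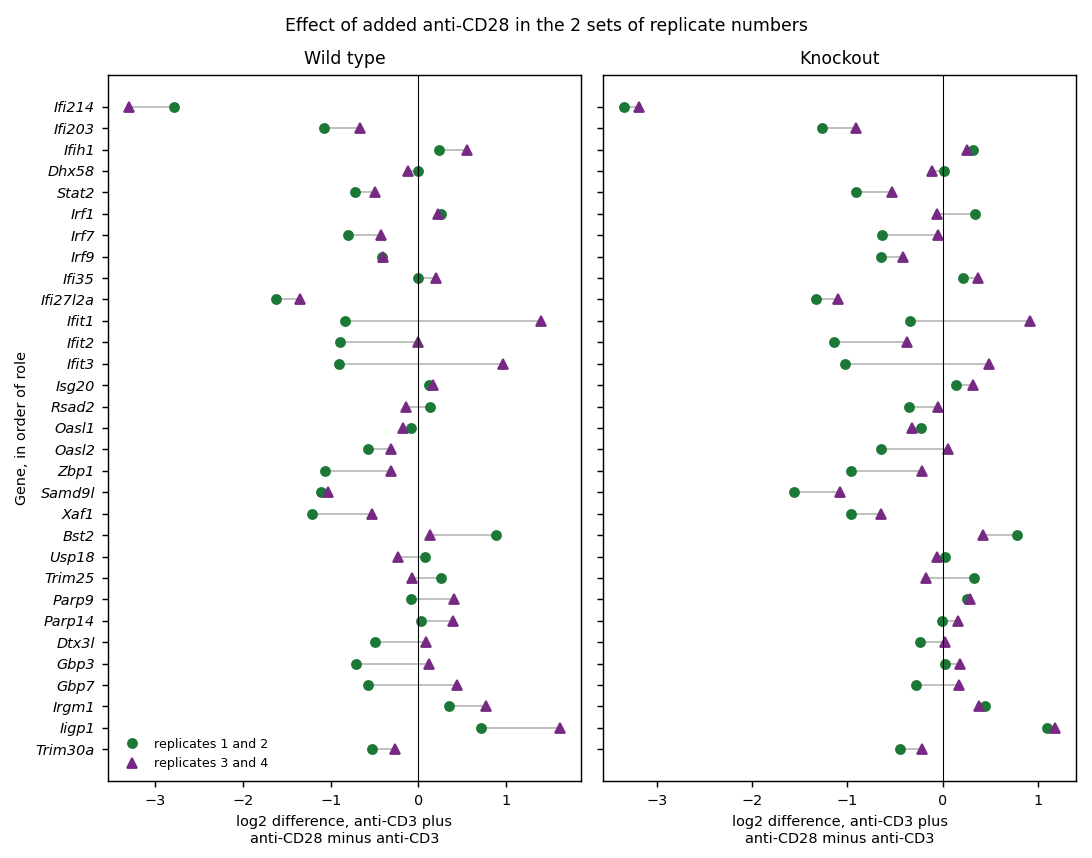
Log2 difference between anti-CD3 plus anti-CD28 and anti-CD3 (horizontal axis) for each tested member (vertical axis), from replicates 1 and 2 (circles) and from 3 and 4 (triangles), in wild type (left) and knockout (right). Ifit1 and Ifit3 lie on opposite sides of 0 in the sets of both genotypes, and Ifi214 lies far below 0 in all 4 values.

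The rest of the interferon pathway was read from lists of genes around the members. Of the ligands, 8 of 10 had a probe and 6 were tested. Ifng rose by 0.69 with anti-CD28 in wild type (SE 0.21, adjusted p = 0.0205), from 6.87 ± 0.29 to 7.55 ± 0.54, and showed 0.49 in knockout (adjusted p = 0.0756, and adjusted p = 0.0148 with the replicate block). The type I genes Ifnb1 and Ifna4 were near background in all groups, Ifnb1 at 5.0 to 5.56. Ifna2, with group means of 6.79 to 6.94, and Ifna5, at 8.51 to 8.88, were above background in every group and were called in neither genotype.

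Of 11 receptor and JAK-STAT genes tested, 0 rose and 3 fell with anti-CD28 in wild type, and 0 rose and 4 fell in knockout. These counts and those of the lists below stand beside 29.0% of all genes called in either direction in wild type and 38.0% in knockout. Whether any list differs from all genes was not tested. Ifngr1, the binding chain of the interferon gamma receptor, was at 10.58, 10.42, 10.25 and 10.49 in WT_CD3 and at 8.92, 8.93, 9.33 and 9.49 in WT_CD3CD28, with no overlap between the groups. It fell by 1.27 in wild type (2.41-fold, SE 0.17, adjusted p = 2.61e-05) and by 1.42 in knockout (2.68-fold, adjusted p = 4.41e-06). Ifnar1, a chain of the type I receptor, fell by 0.82 (adjusted p = 0.00163) and 0.80 (adjusted p = 0.00154). The kinase Jak1, which serves both receptors, fell by 0.51 (adjusted p = 0.00275) and 0.73 (adjusted p = 9.59e-05).

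Of 5 other IRF genes tested, 1 rose and 2 fell in each genotype. Irf8, a lymphoid and myeloid regulator, rose by 1.86 in wild type (SE 0.28, adjusted p = 7.52e-05) and by 1.48 in knockout (adjusted p = 0.000437). Irf2, an antagonist of Irf1, fell by 0.96 and 0.89 (adjusted p = 2.49e-07 and 2.83e-07), and Irf3 fell by 0.49 and 0.37. Of 11 negative regulators, 2 rose and 1 fell in wild type and 2 rose and 2 fell in knockout. The phosphatase gene Ptpn2 rose by 0.31 and 0.55 and Ptpn11 by 0.30 and 0.42.

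Nucleic acid sensing had 1 of 14 genes higher and 4 lower in wild type, and 2 higher and 3 lower in knockout. The DNA sensor gene Cgas was near background without anti-CD28 and rose by at least 1.08 and 1.16 (adjusted p = 8.26e-06 and 2.13e-06). Ikbke, a kinase that activates IRF3 and IRF7, fell by 1.31 and 1.29 (adjusted p = 1.38e-06 and 9.04e-07). The adaptor gene Myd88 was the 1 gene of these lists called between genotypes. It was at 9.45, 9.23, 9.55 and 9.27 in WT_CD3 and at 8.73, 8.68, 8.98 and 8.47 in KO_CD3, with no overlap between the groups (-0.66, SE 0.13, adjusted p = 0.0258).

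Of 42 further interferon-induced genes tested, 5 rose and 17 fell in wild type and 6 rose and 18 fell in knockout. Their median differences were -0.22 and -0.23, against -0.03 and -0.06 over all genes. The translation-blocking kinase gene Eif2ak2 rose by 1.10 and 1.21 (adjusted p = 4.4e-06 and 8.77e-07). Slfn5, of the Schlafen family, fell by 1.37 (adjusted p = 3.48e-06) and 1.78 (adjusted p = 1.01e-07). Trim12a fell by 1.65 (adjusted p = 7.37e-06) and 1.94 (adjusted p = 7.02e-07). Ifitm3, which blocks viral entry and was picked after its values were seen, rose by 2.49 in wild type, from 6.96, 7.04, 6.59 and 6.14 to 10.22, 10.08, 8.37 and 8.05, and by at least 2.98 in knockout, where it was near background under anti-CD3. Of 11 genes of MHC class I and antigen processing, 1 rose and 3 fell in wild type and 2 rose and 3 fell in knockout. The proteasome activator gene Psme2 rose by 0.49 and 0.58, and Tapbp, which loads peptide, fell by 0.64 in wild type.

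**Figure D5:**
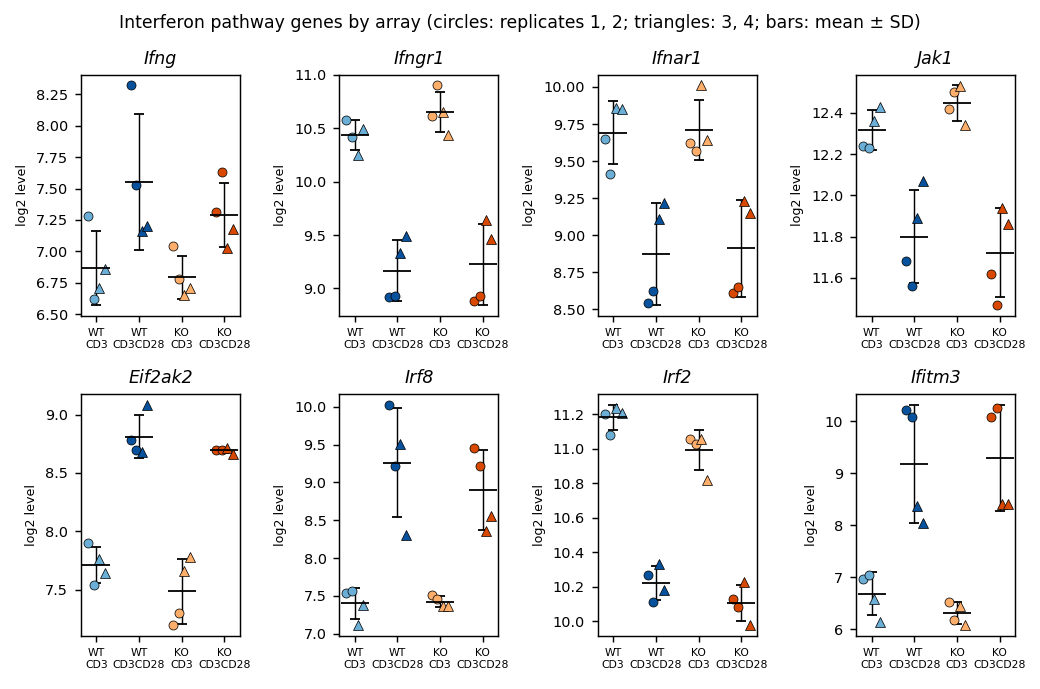
Log2 level on each array (vertical axis) of 8 interferon pathway genes by group (horizontal axis); circles are replicates 1 and 2, triangles 3 and 4, and bars the mean ± SD of 4 arrays. Ifngr1, Ifnar1, Jak1 and Irf2 are lower, and Irf8, Eif2ak2 and Ifitm3 higher, with anti-CD28 in both genotypes, and Ifng is highest in wild-type replicate 1.

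Markers of cell types moved with the stimulus beside these genes. Of 8 T cell markers tested, 5 fell in wild type and 4 in knockout, with a list mean of 11.58 to 11.83 on WT_CD3 arrays and 10.94 to 11.37 on WT_CD3CD28 arrays. Of 7 B cell markers 3 fell in wild type and 4 in knockout, with list means of 6.45 to 6.55 against 6.00 to 6.22 in wild type and 6.40 to 6.68 against 6.15 to 6.23 in knockout. The B cell genes Cd79a, Cd22 and Fcrla were near background in all groups, while Cd79b, Blk and Pax5 were above it in every group. Ms4a1, which encodes CD20, was at 6.51 ± 0.08 in WT_CD3 and 6.74 ± 0.60 in KO_CD3 and near background with anti-CD28, at 5.61 ± 0.34 and 5.49 ± 0.29, and was called lower in both genotypes. Of 9 myeloid and dendritic markers tested, 2 fell in wild type and 4 in knockout, with list means of 6.16 to 6.24 against 5.96 to 6.01 in wild type and 6.15 to 6.52 against 5.95 to 6.10 in knockout. The defining genes Csf1r, Itgax, Flt3 and Adgre1 were near background in all groups, while Tyrobp and Cst3 were above it in every group. Tyrobp, an adaptor of myeloid and NK receptors, fell from 7.48 ± 0.09 to 6.97 ± 0.43 in wild type (adjusted p = 0.0185) and from 7.81 ± 0.16 to 7.07 ± 0.12 in knockout (adjusted p = 0.00114). Lyz2 was at 8.42, 5.33, 7.29 and 6.64 in KO_CD3 and near background in the other 3 groups. Of 3 NK markers tested, 1 rose and 2 fell in each genotype, and Ncr1, Klrb1c, Klrk1 and Gzma were near background in all groups. Klrd1, which encodes the receptor chain CD94, was at 9.36 ± 0.32 in WT_CD3 and near background in WT_CD3CD28 at 5.93 ± 0.31 (adjusted p = 4.69e-08), and it fell from 10.28 ± 0.48 to 6.56 ± 0.49 in knockout (adjusted p = 8.52e-09), a larger difference than for any member tested. Markers of CD8 T cells rose in 2 of 2 cases in both genotypes, those of regulatory T cells in 3 and 4 of 4, and those of memory T cells in 2 of 4 in each. In these bulk samples fewer cells of a type and less RNA per cell cannot be told apart, and the part of other cells in the members' differences was not tested.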

How the data were processed

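Labelled RNA was hybridised to 16 Affymetrix mouse arrays, 4 per group. The authors deposited log2 levels that RMA had made (background correction, quantile normalization and a summary per probe set), per the submitters' processing notes. The medians of the deposited arrays still ran from 6.64 to 6.97, and median centring made them equal. No depth applies, and the number of arrays limits the precision. Of 35556 probes, 21789 have 1 symbol in the annotation table, 1621 several and 12146 none listed. The brightest probe with 1 symbol stood for each gene. A gene was kept where this probe was above the 25th percentile on 4 or more arrays.

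Differences were fitted in limma 3.58.1 (R 4.3.3) with a mean per group over 16 arrays (12 residual and 4.92 prior degrees of freedom) and Benjamini-Hochberg adjustment over 16427 genes. The 5 comparisons were the CD28 effect in WT and in KO, KO against WT with each kind of bead, and the interaction. The script was checked on data with known changes.

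The replicate numbers come from the titles. Deviations of same-numbered arrays correlated at 0.16 to 0.59 over all comparisons, every pair above 0.1, so a fit with the number as a block was added. With anti-CD28, different numbers within replicates 1 and 2 or 3 and 4 correlated at 0.57 to 0.67 in 3 of 4 cases across genotypes, and at 0.16 in the other, against 0.20 to 0.59 for same numbers, so these values do not single out the number. Other alternatives were the filter, scaling, choice of probe, variance model, array weights, Xist level, the replicate sets 1 and 2 against 3 and 4, and leaving out each array.

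The members and all gene lists were chosen with earlier results of these data known. All members are named; from each pathway list up to 3 passing genes per comparison with the smallest p are eligible, and Ifng in any case. Figures used Python 3.11.15 and matplotlib 3.10.9.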

Additional observations from a re-analysis of the deposited data

Results flagged for a closer look

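Among 124 sets of 4 arrays (31 members in 4 groups), 5 had 1 array far from the other 3, by Dixon's test of the gap over the range at its 95% critical value. Chance gives such an array in about 1 in 20 groups, 6.2 here. All 5 were in WT_CD3. On replicate 1, Irf1 was at 10.24 against 9.20 to 9.33, Dtx3l at 10.01 against 9.46 to 9.54 and Zbp1 at 9.93 against 9.38 to 9.46, each the highest array, while Bst2 was the lowest at 8.0 against 8.13 to 8.15. On replicate 2, Samd9l was the lowest at 8.43 against 8.86 to 8.92.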

How the results depend on the processing

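Of 4490 member values recomputed under the alternatives, 4344 kept their side of the threshold, and changes of sign between uncalled values count among these. Of the rest, 92 lost a call, 51 gained one and 3 changed sign with a call. The latter were Ifit1 (-0.84) and Ifit3 (-0.91) in wild type with replicates 1 and 2 alone, and Gbp7 (0.44) in wild type with replicates 3 and 4 alone; the cause was not tested. The 3 higher members in wild type became 5 with replicates 3 and 4 alone, and the 9 lower ones 15 with replicates 1 and 2 alone. In knockout 5 were higher and 6 lower after median centring, and 6 were lower with replicates 3 and 4 alone; those fits on a set use 8 arrays. Under anti-CD3 the genotype count of 0 became 1 higher and 1 lower with the replicate block, beside 5.34% and 6.56% of all genes. It became 0 higher and 2 lower (Gbp3, Ifih1), or 6.45% lower, with replicates 1 and 2 alone, beside 308 and 1080 of all 16427 genes. With the sets as a covariate it became 1 higher (Samd9l), and the share of all genes in that fit is not given here. The block moved no other count of members by over 1.5 times. Leaving out 1 array gave 0 to 3 higher and 8 to 9 lower members in wild type and 0 to 4 and 7 to 11 in knockout, and 0 in each genotype comparison and the interaction. The 0 higher members in wild type came without replicate 2, 3 or 4 of WT_CD3 or 1 of WT_CD3CD28, and the 0 in knockout without replicate 1 of KO_CD3CD28. Limits are the few arrays, replicates of unnamed source, and 9 listed genes not tested.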
